A study of Mus musculus with 20 samples.

Results

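The genes described here encode enzymes that make prostaglandins and leukotrienes from arachidonic acid in mouse skin. They were chosen by name (Ptgs1, Ptgs2, Ptges, Ptgds, Hpgds, Hpgd, Alox5, Alox5ap, Alox15 and Pla2g4a), and every probe-set whose single gene symbol in the array annotation was one of these names was taken. This gave 14 of the 45101 probe-sets on the array, which covered 9 of the 10 genes. Ptgs1, the gene of the constitutive cyclooxygenase, had no probe-set under that single symbol in the annotation used and was not analysed here. All 14 probe-sets passed the filter on low values.

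Expression was measured in full-thickness dorsal skin of 20 female C57BL/6 mice, with 1 array per mouse and 5 mice in each of 4 groups. Mice of the IMO-8400, IMO-3100 and saline groups were all given 3 µg of IL-23 daily into the dermis, on days 1 to 4. On days 4 to 6 they were given, subcutaneously at a distant site, IMO-8400 at 15 mg/kg, IMO-3100 at 15 mg/kg or the saline vehicle (PBS in the study's methods). Naïve mice are described without any injection, so the effect of IL-23 cannot be told apart from that of the injections themselves. Mice were 6 weeks old at purchase and housed for 1 week, and skin was collected on day 7. IMO-3100 is an oligonucleotide antagonist of TLR7 and TLR9, and IMO-8400 of TLR7, TLR8 and TLR9, the endosomal receptors of nucleic acids. The comparisons ask how IL-23-injected skin differed from naïve skin and how each antagonist changed that skin.

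Eicosanoid synthesis starts when cytosolic phospholipase A2 releases arachidonic acid from membranes. Cyclooxygenases turn it into an unstable endoperoxide, from which terminal synthases make prostaglandin E2, prostaglandin D2, prostacyclin or thromboxane, while 5-lipoxygenase, helped by its membrane partner FLAP, starts the leukotriene branch. In skin these lipids widen vessels, sensitise nerves and draw in leukocytes, and 15-prostaglandin dehydrogenase ends the prostaglandin signal.

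Values are log2 GCRMA expression as deposited, with a floor at 2.02 in all arrays, and levels are compared only within a probe-set. A difference was called when the Benjamini-Hochberg adjusted p of limma's moderated test, over 30960 tested probe-sets, was under 0.05 and the fold change (FCH) was over 2. A gene was counted at its lead probe-set, the one with the highest mean over the arrays. Array medians lay between 6.09 and 6.29, and the Gapdh 3' to 5' control difference between 0.54 and 0.74. Keratinocyte markers, which define the labelled tissue, averaged 13.85 to 14.30 in all mice. Other tissue layers varied more. Skeletal muscle markers averaged 14.31 to 14.54 in IMO-8400 and 13.95 to 14.36 in IMO-3100 mice. In saline mice they averaged 13.51 to 14.12, and in naïve mice 13.74 to 14.65. Adipocyte markers averaged 8.38 to 9.90 in saline and 11.27 to 11.95 in naïve mice. The part of these tissues in the results was not tested. Naïve mice were unlike one another. The mean of 8 hair follicle markers was 14.05, 12.97, 10.84, 5.93 and 3.90 in naïve replicates 1 to 5, and 2.86 to 3.15 in all other mice except IMO-8400 replicate 5, at 8.21. The mean of 7 measured macrophage and monocyte markers was 10.88 in naïve replicate 1 and 12.37 to 13.37 in all other mice. In whole skin, fewer cells of a type and less RNA per cell cannot be told apart. All comparisons with saline share the same saline mice, and all comparisons with naïve skin share the same naïve mice.

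In skin of IL-23 and saline mice, the inducible steps of the prostaglandin E2 route and the 12/15-lipoxygenase were higher than in naïve skin, and the lipocalin-type prostaglandin D2 synthase was lower. Of the 9 genes, 4 were called: Ptgs2, Ptges and Alox15 were higher and Ptgds was lower. Over all 13740 genes tested at their lead probe-set, 17.6% were called in this comparison, 9.02% higher and 8.6% lower. The median log2 difference of the 9 genes was 0.37, and over all genes it was -0.01. The groups did not overlap for 4 of the 9 genes, against 26.8% of all genes.

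**Figure D1:**
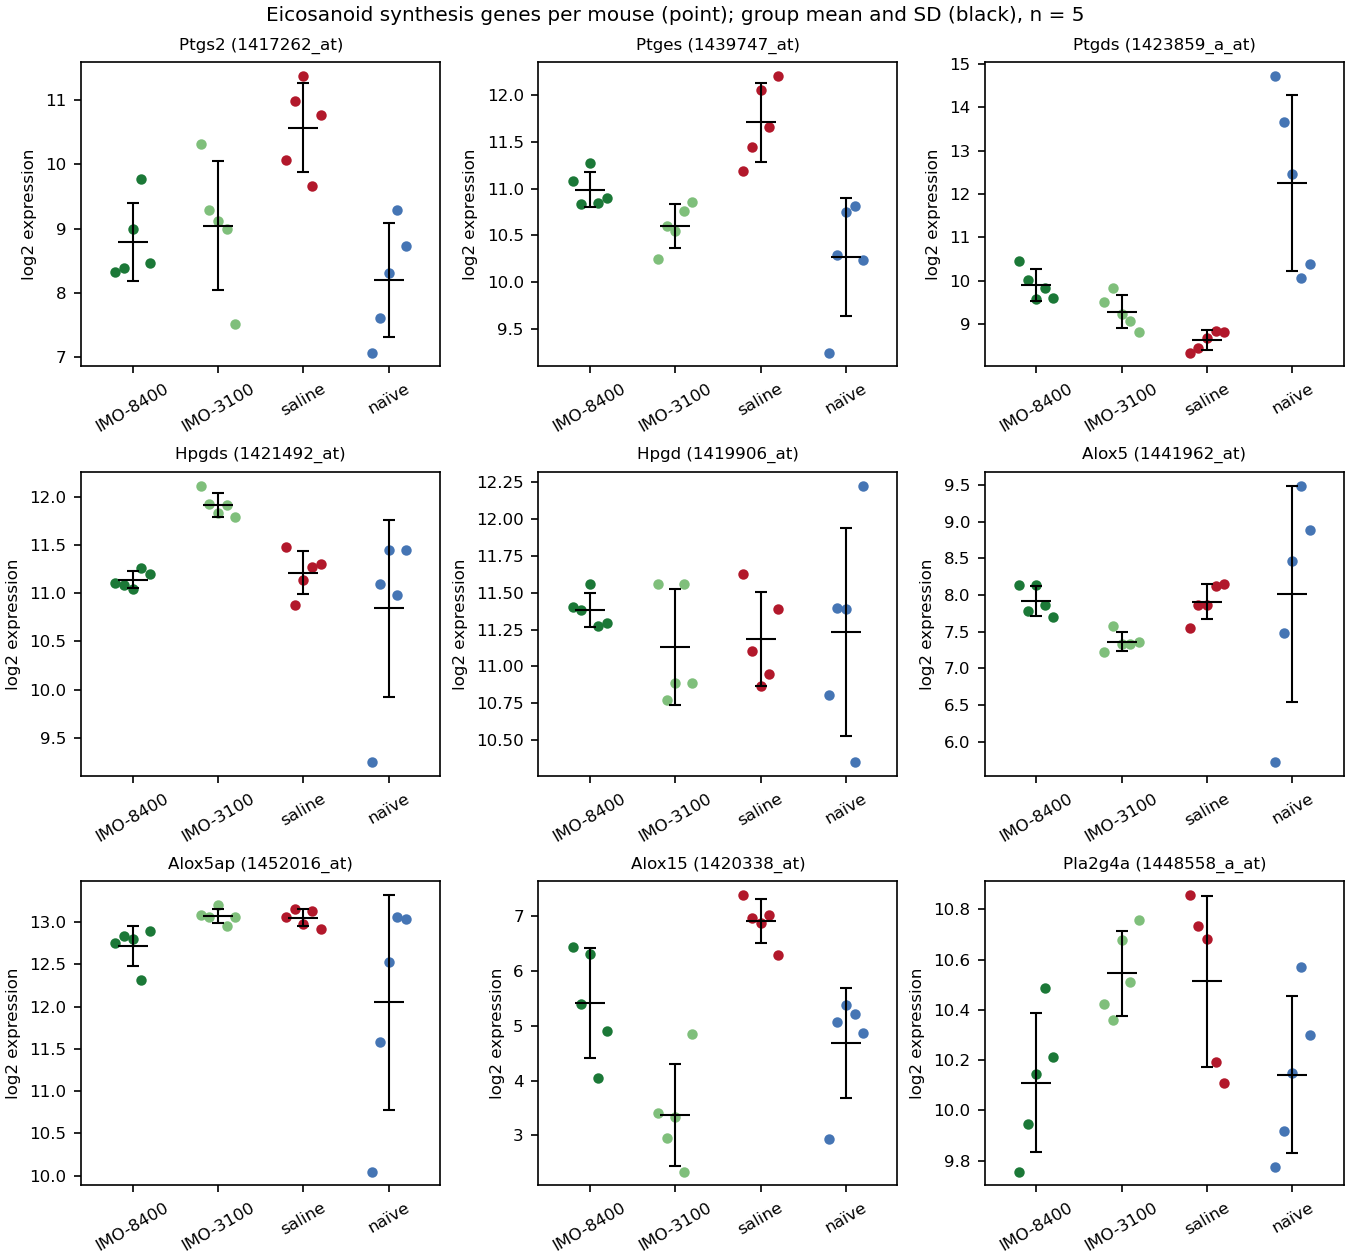
Log2 expression of the lead probe-set of each of the 9 measured genes in every mouse, for the IMO-8400, IMO-3100, saline and naïve groups. Points are mice and black bars are the group mean and SD (n = 5). For Alox15, the saline mice sit between 6.29 and 7.38 and the IMO-3100 mice between 2.34 and 4.85.

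Ptgs2 encodes cyclooxygenase-2, the inducible enzyme at the head of the prostanoid branch. Its lead probe-set (1417262_at) read 10.07, 10.98, 11.37, 9.67 and 10.76 in saline mice, against 7.07, 7.61, 8.32, 9.30 and 8.72 in naïve mice. Every saline mouse was above every naïve mouse. The difference was 2.37 on the log2 scale (SE 0.48), a 5.16-fold higher level (adjusted p = 0.000728, limma). The second Ptgs2 probe-set (1417263_at) gave almost no signal. It read 2.02 in all IMO-8400, IMO-3100 and naïve mice, and 2.02 to 2.21 in saline mice except replicate 3, at 6.84.

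Ptges encodes the inducible microsomal prostaglandin E synthase, which works downstream of cyclooxygenase-2. Its lead probe-set (1439747_at) read 11.18, 11.44, 12.06, 11.66 and 12.21 in saline mice, against 9.24, 10.29, 10.75, 10.81 and 10.23 in naïve mice. The lowest saline mouse was above the highest naïve mouse. The difference was 1.45 (SE 0.25), or 2.73-fold (adjusted p = 0.000154, limma). The other Ptges probe-sets gave larger differences in the same direction, 2.22 (SE 0.37) at 1449449_at and 2.16 (SE 0.29) at 1449450_at, and neither had overlapping groups.

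Ptgds encodes the lipocalin-type prostaglandin D synthase, a secreted protein that also carries lipophilic molecules. Its lead probe-set (1423859_a_at) read 8.34, 8.46, 8.69, 8.85 and 8.82 in saline mice, against 14.72, 13.66, 12.47, 10.06 and 10.39 in naïve mice. All saline mice were below all naïve mice, and the naïve mice themselves spanned more than the distance between the lowest of them and the saline group. The difference was -3.63 (SE 0.62), a 12.4-fold lower level (adjusted p = 0.000166, limma), and at 1423860_at it was -4.97 (SE 0.86). Naïve replicates 1 to 3, with the highest Ptgds, were also those with the highest hair follicle markers. Their melanocyte marker means were 12.86, 10.71 and 8.15, against 6.10 and 6.04 in naïve replicates 4 and 5. IMO-8400 replicate 5, whose hair follicle mean of 8.21 was above those of naïve replicates 4 and 5, read lower for Ptgds than both, at 9.61. Over the arrays, Ptgds had a Pearson r of 0.95 with the melanocyte mean and 0.91 with the hair follicle mean. With the hair follicle marker mean as a covariate the Ptgds difference was -1.44 (adjusted p = 0.0653, limma) and was no longer called. The 3 genes whose lead probe-sets followed Ptgds most closely over the 20 arrays were Mlana, a melanosome protein, with a Pearson r of 0.96, and Bmp6 and Wnk4, both also at 0.96, as a description of these arrays.

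**Figure D2:**
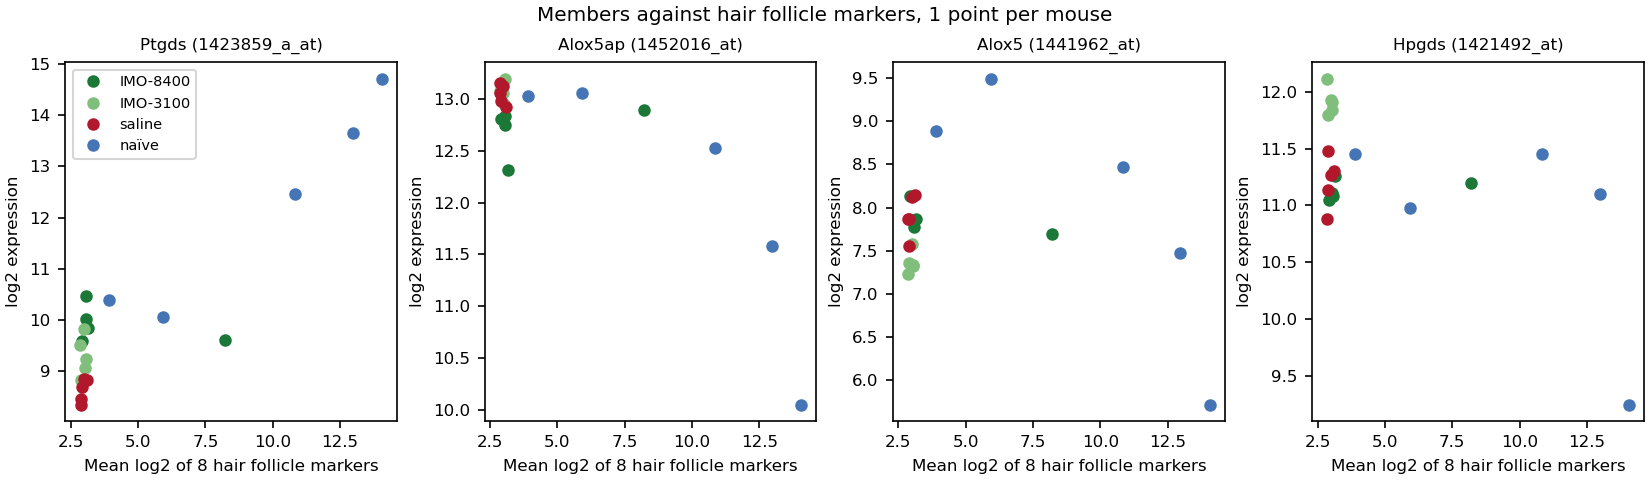
Log2 expression of Ptgds, Alox5ap, Alox5 and Hpgds (vertical axes) against the mean log2 level of 8 hair follicle markers (horizontal axes), with 1 point per mouse coloured by group. The naïve mice spread from 3.90 to 14.05 on the horizontal axis, and naïve replicate 1, at 14.05, has the highest Ptgds and the lowest Alox5ap, Alox5 and Hpgds.

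The promoter windows of these 3 genes are shown because Ptgs2 and Ptges were called higher together while Ptgds was called lower. Each runs from 250 bases before to 50 bases after the transcript start in RefSeq (GRCm38.p6), where 8 of the 10 named genes had such an entry. Ptgs2 is at chr1:150099781-150100080 on the plus strand, Ptges at chr2:30903248-30903547 on the minus strand and Ptgds at chr2:25469700-25469999 on the minus strand. Capitals mark matches, on either strand, to the AP-1 motif TGANTCA, the GC box GGGCGG, the C/EBP motif TTNNGNAA, the CRE core TGACG and the kappaB consensus. The TATA box letters TATAAA were also searched and matched in none of the 3 windows.
Ptgs2: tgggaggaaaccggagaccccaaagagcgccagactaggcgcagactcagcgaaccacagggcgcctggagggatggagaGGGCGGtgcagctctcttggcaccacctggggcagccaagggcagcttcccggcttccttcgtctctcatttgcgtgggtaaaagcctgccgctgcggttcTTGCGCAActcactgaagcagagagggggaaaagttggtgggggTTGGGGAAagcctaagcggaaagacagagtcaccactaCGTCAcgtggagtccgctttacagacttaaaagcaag
Ptges: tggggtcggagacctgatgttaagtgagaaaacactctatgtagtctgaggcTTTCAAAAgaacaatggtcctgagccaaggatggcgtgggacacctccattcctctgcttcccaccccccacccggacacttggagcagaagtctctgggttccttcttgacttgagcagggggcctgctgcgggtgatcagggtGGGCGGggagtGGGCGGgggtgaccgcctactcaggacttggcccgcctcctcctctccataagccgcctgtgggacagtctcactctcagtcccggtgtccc
Ptgds: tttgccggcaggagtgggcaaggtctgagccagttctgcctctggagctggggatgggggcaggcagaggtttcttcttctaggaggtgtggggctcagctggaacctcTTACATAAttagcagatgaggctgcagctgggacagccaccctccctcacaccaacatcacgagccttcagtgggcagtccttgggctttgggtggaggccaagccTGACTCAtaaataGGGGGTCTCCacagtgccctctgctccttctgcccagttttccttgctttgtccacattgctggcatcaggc

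Counting from the start base as 1, the Ptgs2 window held a GC box at -170, C/EBP matches at -69 and -25 and a CRE core on the minus strand from 14 to 18. The Ptges window held GC boxes at -53 and -42 and a C/EBP match at -198. The Ptgds window held an AP-1 match at -35, a kappaB match at -22 and a C/EBP match at -141. Of 32851 promoter windows of the same length, 7.81% held the AP-1 motif, 35.7% the GC box, 40.7% the C/EBP motif, 20.8% the CRE core, 4.51% the kappaB consensus and 13.6% the TATA box. A match describes the letters only.

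Alox15 encodes the mouse 12/15-lipoxygenase, which oxygenates arachidonic acid to hydroxy fatty acids and is known from macrophages and eosinophils. Its probe-set (1420338_at) read 7.38, 6.96, 6.87, 7.02 and 6.29 in saline mice, against 2.93, 5.07, 5.37, 5.21 and 4.87 in naïve mice. No saline mouse fell among the naïve mice, of which replicate 1 was near the floor. The difference was 2.21 (SE 0.52), or 4.64-fold (adjusted p = 0.0021, limma). The hair follicle covariate lowered it to 1.43 (adjusted p = 0.141, limma), and the Ptgs2 difference to 1.34 (adjusted p = 0.114, limma), so that neither was called, while Ptges kept its call.

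The leukotriene genes moved less, and in naïve skin they varied widely. Alox5ap encodes FLAP, which presents arachidonic acid to 5-lipoxygenase. It read 13.06, 13.16, 12.98, 13.13 and 12.92 in saline mice, against 10.05, 11.58, 12.53, 13.06 and 13.03 in naïve mice. The saline mice were tightly grouped and the top of the naïve range lay within them. The difference of 1.00 (SE 0.39) passed the adjusted threshold (adjusted p = 0.0426, limma), but its FCH of 1.999 did not exceed 2. It was called, at 1.12 to 1.25, without naïve replicate 3, 4 or 5, was 0.50 without naïve replicate 1 and 0.18 without naïve replicates 1 and 2, and turned to -0.21 (adjusted p = 0.736, limma) with the hair follicle covariate.

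Alox5 encodes 5-lipoxygenase, the first enzyme of leukotriene synthesis. Its probe-set (1441962_at) read 7.55, 7.86, 7.87, 8.13 and 8.15 in saline mice, against 5.72, 7.48, 8.47, 9.50 and 8.89 in naïve mice. Naïve mice lay on both sides of the saline group, and the difference of -0.10 (SE 0.45) was not called (adjusted p = 0.876, limma). Without naïve replicates 1 and 2 it was -1.04 and was called (adjusted p = 0.000432, limma), and with the hair follicle covariate it was -1.62 (adjusted p = 0.0109, limma).

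Alox5ap followed genes of blood-derived cells over the 20 arrays: the closest lead probe-sets were those of Btk and Dock2, with a Pearson r of 0.98 each, and Tnfrsf13b, also 0.98. Btk is a kinase of B and myeloid cells, Dock2 a migration factor of leukocytes and Tnfrsf13b a receptor known from B cells. For Alox5 the closest was Il6st, the shared receptor subunit of the interleukin-6 family, with an r of 0.87. The macrophage and monocyte marker mean was 10.88, 12.37, 12.88, 12.86 and 13.30 in naïve replicates 1 to 5. In saline mice it was 13.01 to 13.24. It was lowest in the naïve mouse that was lowest for Alox5ap and Alox5. Among naïve mice, the mast cell (7.60), T cell (6.20), fibroblast (13.25) and endothelium (7.74) means were also lowest in that mouse. Its hair follicle and melanocyte means were the highest. Over the arrays, the macrophage and monocyte mean had a Pearson r of 0.97 with Alox5ap and 0.55 with Alox5. For Alox5, r was higher with the endothelium (0.71), fibroblast (0.69) and dendritic and Langerhans cell means (0.66). The part of these cells in the values was not tested.

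Hpgds, Hpgd and Pla2g4a were not called between saline and naïve skin. Hpgds, the haematopoietic prostaglandin D synthase known from mast cells, helper T cells and antigen-presenting cells, differed by 0.37 (95% interval -0.23 to 0.97). Hpgd, the dehydrogenase that inactivates prostaglandins, differed by -0.05 (95% interval -0.60 to 0.51) at its lead probe-set (1419906_at) and by -0.18 at 1419905_s_at. Pla2g4a, the cytosolic phospholipase A2 alpha that supplies arachidonic acid, differed by 0.37 (95% interval 0.01 to 0.74, adjusted p = 0.0902, limma). Pla2g4a and Ptgs2 neighbour each other on chromosome 1 with 0 protein-coding genes between them in RefSeq, and only Ptgs2 was called.

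In IMO-3100-treated skin, 3 of the 4 genes called above were lower than in saline skin. Alox15 was 11.5-fold lower, Ptgs2 2.88-fold and Ptges 2.16-fold, and no gene of the 9 was called higher. Over all genes 7.34% were called, 2.68% higher and 4.66% lower. The median over the 9 genes was -0.05, and over all genes it was -0.02.

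Alox15 read 3.41, 2.95, 3.33, 2.34 and 4.85 in IMO-3100 mice, against the saline values of 6.29 to 7.38. All IMO-3100 mice were below all saline mice, and 2 of them were under 3, near the floor. The difference was -3.53 (SE 0.52, adjusted p = 0.000191, limma), the largest in size of the 9 genes in this comparison. With values under 4 set to 4 it was -2.73 and was still called. Against naïve skin Alox15 differed by -1.31 (adjusted p = 0.0651, limma), which was not called, although it was called at -1.75 without naïve replicate 1 and at -1.68 without IMO-3100 replicate 5.

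Ptgs2 read 10.31, 9.28, 9.12, 9.00 and 7.52 in IMO-3100 mice, against 9.67 to 11.37 in saline mice. Replicate 1 of the IMO-3100 group lay inside the saline range and the rest lay below it. The difference was -1.52 (SE 0.48, adjusted p = 0.0256, limma). The call was lost, with differences of -1.14 to -1.48, when IMO-3100 replicate 5 or saline replicate 2, 3 or 5 was left out.

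Ptges read 10.24, 10.60, 10.54, 10.76 and 10.86 in IMO-3100 mice, against 11.18 to 12.21 in saline mice. The groups did not overlap at any of its 3 probe-sets. The difference was -1.11 (SE 0.25, adjusted p = 0.00348, limma) at the lead probe-set, -2.11 (SE 0.37) at 1449449_at and -1.95 (SE 0.29) at 1449450_at. Without saline replicate 5 the lead probe-set stood at -0.99, under an FCH of 2. The 3 gene-level groups not overlapping, Ptges, Alox15 and Hpgds, compare with 24.2% of all genes.

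Hpgds read 12.12, 11.92, 11.84, 11.91 and 11.80 in IMO-3100 mice, against 11.48, 10.88, 11.14, 11.27 and 11.31 in saline mice. All IMO-3100 mice were higher, but the difference of 0.70 (SE 0.29) was not called (adjusted p = 0.0775, limma). Ptgds differed by 0.66 (95% interval -0.65 to 1.97), Alox5 by -0.55 (-1.49 to 0.40) and Alox5ap by 0.02 (-0.79 to 0.83). Hpgd differed by -0.05 (-0.61 to 0.50) and Pla2g4a by 0.03 (-0.33 to 0.40), and none of these was called. At 1423860_at Ptgds differed by 1.23 without overlap, with IMO-3100 mice at 4.62 to 5.31 and saline mice at 3.73 to 4.12. That difference was not called (adjusted p = 0.314, limma), but it was with only these 2 groups fitted (adjusted p = 0.00059, limma).

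**Figure D3:**
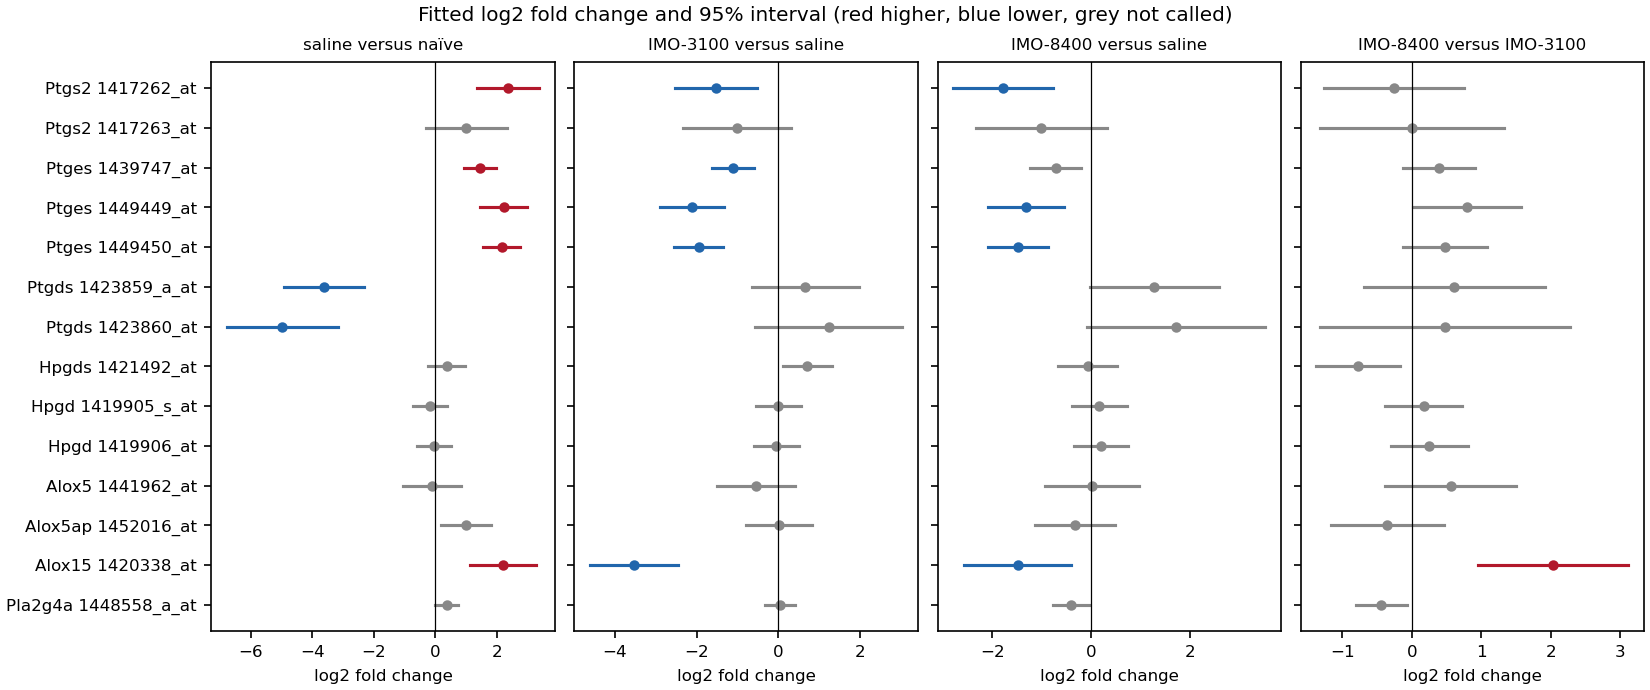
Fitted log2 differences (points) with 95% intervals (lines) for the 14 probe-sets in 4 comparisons, each the first-named group minus the second. Red marks called higher, blue called lower and grey not called. Ptgs2, Ptges and Alox15 stand right of 0 in saline against naïve skin and left of 0 in both antagonist groups against saline.

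In IMO-8400-treated skin, Ptgs2 was 3.44-fold and Alox15 2.81-fold lower than in saline skin, and 2 of the 9 genes were called, both lower. Over all genes 8.82% were called, 4.62% higher and 4.2% lower. The median over the 9 genes was -0.33, and over all genes it was 0.00.

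Ptgs2 read 8.33, 8.39, 9.00, 9.77 and 8.47 in IMO-8400 mice, against 9.67 to 11.37 in saline mice. Replicate 4 of the IMO-8400 group was just above the lowest saline mouse, and the other mice did not overlap. The difference was -1.78 (SE 0.48, adjusted p = 0.0107, limma). Against naïve skin Ptgs2 differed by 0.59 in IMO-8400 mice (95% interval -0.42 to 1.60) and by 0.84 in IMO-3100 mice (-0.17 to 1.85), neither called.

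Alox15 read 6.44, 5.39, 6.30, 4.04 and 4.90 in IMO-8400 mice, against 6.29 to 7.38 in saline mice. Replicates 1 and 3 of the IMO-8400 group reached the lowest saline mouse. The difference was -1.49 (SE 0.52, adjusted p = 0.0378, limma). This call was lost (differences -1.15 to -1.50, adjusted p 0.0645 to 0.11, limma) on leaving out IMO-8400 replicate 2, 4 or 5 or saline replicate 1, 2, 3 or 4.

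Ptges read 11.09, 10.84, 11.28, 10.85 and 10.89 in IMO-8400 mice at the lead probe-set, against 11.18 to 12.21 in saline mice. Only IMO-8400 replicate 3 overlapped the saline range. The difference of -0.72 (SE 0.25) passed the adjusted threshold (adjusted p = 0.0358, limma) but not an FCH of 2. The other probe-sets were called lower, at -1.32 (SE 0.37, adjusted p = 0.013) and -1.48 (SE 0.29, adjusted p = 0.00126, both limma), with no overlap.

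Ptgds read 10.47, 10.02, 9.58, 9.84 and 9.61 in IMO-8400 mice, against 8.34 to 8.85 in saline mice. Every IMO-8400 mouse was above every saline mouse, yet the difference of 1.27 (SE 0.62) was not called (adjusted p = 0.136, limma). The shared estimate of the spread includes the naïve mice, whose SD was 2.02, against 0.36 in IMO-8400 and 0.22 in saline mice. Fitted on these 2 groups alone, the same difference was called (adjusted p = 0.00125, limma). Groups did not overlap for 2 of the 9 genes, Ptgds and Alox5ap, against 30.3% of all genes. Alox5ap read 12.75, 12.84, 12.80, 12.31 and 12.90 in IMO-8400 mice, a difference of -0.33 from saline (95% interval -1.14 to 0.48).

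Pla2g4a differed by -0.41 between IMO-8400 and saline mice (95% interval -0.77 to -0.04, adjusted p = 0.0914, limma), Hpgds by -0.07 (-0.68 to 0.53), Alox5 by 0.01 (-0.93 to 0.96) and Hpgd by 0.20 (-0.36 to 0.75). None of these 4 was called.

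Some markers of several cell types were also called higher in saline than in naïve skin and lower in antagonist-treated than in saline skin. Neutrophil markers were among them. The mean of the 7 measured markers was 3.66 to 4.34 in IMO-8400, 3.89 to 4.09 in IMO-3100, 5.38 to 6.62 in saline and 2.62 to 3.47 in naïve mice. Of the 6 tested, 5 were called higher in saline than in naïve skin, and 5 and 4 were called lower than saline in IMO-8400 and IMO-3100 skin. Ltf and Ngp, which define neutrophil granules, were under 3 in every group. The mean of 7 T cell markers was 9.23 to 9.67 in IMO-8400, 8.76 to 9.46 in IMO-3100, 9.77 to 10.17 in saline and 6.20 to 8.47 in naïve mice, with 6 of 7 called higher in saline than in naïve skin, and 2 and 4 called lower than saline in IMO-8400 and IMO-3100 skin. Of the mast cell markers 4 of 7 were called higher in saline than in naïve skin, and 1 was called lower than saline with each antagonist. All 4 adipocyte markers tested moved the other way, called lower in saline than in naïve skin, and 3 were called higher than saline with each antagonist.

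Of the 5 eosinophil markers, Epx, Prg2 and Il5ra were under 3 in every group, and Ccr3 in every group but saline, where it reached 3.56. Siglecf was called lower than saline in IMO-8400 (-1.54) and IMO-3100 mice (-1.89). The mean of the 5 was 2.31 to 2.71 in IMO-8400, 2.13 to 2.60 in IMO-3100, 2.61 to 3.10 in saline and 2.08 to 2.72 in naïve mice. The part of any of these cells in the results was not tested.

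The antagonists were compared directly at 15 mg/kg and on the same days, as 1 pair over the 9 genes. Alox15 was the only gene called, 4.10-fold higher in IMO-8400 than in IMO-3100 mice, where 0.524% of all genes were called, 0.386% higher and 0.138% lower. The difference was 2.04 (SE 0.52, adjusted p = 0.0364, limma), with IMO-8400 mice at 4.04 to 6.44 and IMO-3100 mice at 2.34 to 4.85. The ranges overlapped by IMO-8400 replicate 4 and IMO-3100 replicate 5. The call was lost (differences 1.78 to 2.16, adjusted p 0.0522 to 0.102, limma) when IMO-8400 replicate 1, 2, 3 or 5 or IMO-3100 replicate 1, 2, 3 or 4 was left out. With values under 4 set to 4 the difference was 1.24 (adjusted p = 0.0608, limma).

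The other 8 genes were not called between the antagonists, with intervals that differ in width. These intervals use the spread shared by the 4 groups, which includes the naïve mice. The naïve SD was 1.48 for Alox5, against 0.21 in IMO-8400 and 0.13 in IMO-3100 mice. For Hpgds it was 0.92, against 0.09 and 0.12. Ptgs2 differed by -0.26 (95% interval -1.27 to 0.75), Ptges by 0.39 (-0.13 to 0.91), Ptgds by 0.61 (-0.69 to 1.92) and Hpgd by 0.25 (-0.30 to 0.80). Hpgds read 11.11, 11.09, 11.04, 11.26 and 11.20 in IMO-8400 mice, all below the IMO-3100 mice at 11.80 to 12.12, with a difference of -0.78 (-1.38 to -0.17, adjusted p = 0.126, limma). Alox5 read 8.14, 7.78, 8.14, 7.87 and 7.70 in IMO-8400 mice and 7.23, 7.57, 7.34, 7.33 and 7.36 in IMO-3100 mice, also without overlap, and differed by 0.56 (-0.39 to 1.51, adjusted p = 0.508, limma). Over the alternatives that kept all antagonist mice, the adjusted p (limma) ran from 0.0206 to 0.689 for Alox5. For Hpgds it ran from 0.00352 to 0.197, and neither gene was called in any of them. With Alox5ap, 3 of the 9 genes had groups that did not overlap, against 11.2% of all genes. Alox5ap differed by -0.35 (-1.16 to 0.46) and Pla2g4a by -0.44 (-0.80 to -0.07, adjusted p = 0.155, limma).

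Against naïve skin, Ptgds was called lower in both antagonist groups. It was 5.12-fold lower in IMO-8400 skin (difference -2.36, SE 0.62, adjusted p = 0.0149, limma), where 1 of the 9 genes was called, against 7.32% of all genes (4.77% higher, 2.55% lower). It was 7.84-fold lower in IMO-3100 skin (difference -2.97, SE 0.62, adjusted p = 0.0021, limma), where 2 of the 9 genes were called, against 10.6% of all genes (5.76% higher, 4.85% lower). The hair follicle covariate reduced these to -0.54 (adjusted p = 0.601, limma) and -0.78 (adjusted p = 0.454, limma). Without naïve replicates 1 and 2 the IMO-8400 difference was -1.07 (adjusted p = 0.0862, limma). Naïve replicates 4 and 5, at 10.06 and 10.39, lay inside the IMO-8400 range of 9.58 to 10.47. Fitted on these 2 groups alone, the IMO-8400 difference was not called (adjusted p = 0.111, limma).

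In the fit on all mice without a covariate, Alox5 and Alox5ap were not called in either antagonist group against naïve skin, and their differences moved with the naïve mice and the covariate used. Alox5 differed by -0.09 in IMO-8400 mice, and was called at -1.03 without naïve replicates 1 and 2 (adjusted p = 0.00201, limma) and at -1.34 with the hair follicle covariate (adjusted p = 0.0466, limma). In IMO-3100 mice it differed by -0.65, and was called at -1.22 without naïve replicate 1, at -1.59 without naïve replicates 1 and 2 and at -2.16 with the covariate (adjusted p = 0.00559, limma). Alox5ap differed by 1.02 in IMO-3100 mice (adjusted p = 0.056, limma) and by 1.27, called, without naïve replicate 4 or 5, but by 0.52 without naïve replicate 1 and by -0.18 with the covariate (adjusted p = 0.856, limma). In IMO-8400 mice it differed by 0.67, and by -0.15 without naïve replicates 1 and 2. Ptges at 1449449_at differed by 0.90 in IMO-8400 mice (adjusted p = 0.0973, limma) and by 1.12, called, without naïve replicate 3.

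Hpgds was the other gene called in IMO-3100 skin, 2.10-fold higher than in naïve skin (difference 1.07, SE 0.29, adjusted p = 0.0102, limma). Naïve mice read 9.25, 11.10, 11.45, 10.98 and 11.45, all below the IMO-3100 mice. The groups did not overlap for 2 of the 9 genes, Hpgds and Ptgds, against 17.4% of all genes, and in IMO-8400 skin for 1, Ptges, against 12.8%. Without naïve replicate 1 the difference was 0.67, under an FCH of 2, with the hair follicle covariate it was 0.47 (adjusted p = 0.502, limma), and with only these groups fitted it was not called (adjusted p = 0.0858, limma). The mean of 7 mast cell markers was 9.41 to 9.85 in IMO-8400, 9.47 to 9.84 in IMO-3100 and 9.92 to 10.31 in saline mice. It was 7.60 in naïve replicate 1 and 8.60 to 9.15 in the other naïve mice. The mast cell tryptase Tpsab1 was under 3 in every group. All saline mice were above all IMO-3100 mice in the mast cell mean and below them in Hpgds. The dendritic and Langerhans cell marker mean was 8.12 to 8.56 in IMO-8400, 7.94 to 8.42 in IMO-3100 and 7.84 to 8.26 in saline mice. It was 6.79 in naïve replicate 1 and 8.16 to 8.33 in the other naïve mice. The T cell mean, given above, was highest in saline mice. The macrophage and monocyte mean, given above, was also lowest in naïve replicate 1. The part of these cells in the Hpgds values was not tested. The closest lead probe-sets to Hpgds over the arrays were Rgs18 (Pearson r 0.93), Rtl5 (0.91) and Clec4b1 (0.91). Ordered by mean level, Hpgds ran from IMO-3100 (11.92) through saline (11.21) and IMO-8400 (11.14) to naïve skin (10.85), and the only pair called was IMO-3100 against naïve.

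In order of mean level, Alox15 ran from saline (6.90) through IMO-8400 (5.41) and naïve (4.69) to IMO-3100 (3.38), and neither neighbour pair below IMO-8400 was called. Ptgs2 ran from saline (10.57) through IMO-3100 (9.05) and IMO-8400 (8.79) to naïve (8.20), with only saline called apart from the rest. Ptges ran from saline (11.71) through IMO-8400 (10.99) and IMO-3100 (10.60) to naïve (10.26). The IMO-8400 and naïve means of Ptges differed by 0.72, which passed the adjusted threshold (adjusted p = 0.0495, limma) but not an FCH of 2. The closest lead probe-sets were Adgra2 (Pearson r 0.87) for Alox15, Ppp1r11 and Osmr, a receptor subunit for oncostatin M (both 0.88), for Ptgs2, Ttc39a (0.95) for Ptges, Erlin1 (0.90) for Pla2g4a and Etfbkmt (0.78) for Hpgd.

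The other genes of the pathway were taken from lists by role, of which 50 of 57 were measured and 40 tested. In saline against naïve skin 13 of the 40 were called, 10 higher and 3 lower, against 17.6% of all genes. In IMO-3100 against saline skin 5 were called (1 higher, 4 lower), against 7.34%, and in IMO-8400 against saline skin 7 (3 higher, 4 lower), against 8.82%. Between the antagonists 0 were called by limma, against 0.524%, with 3 at an unadjusted p under 0.05. Against naïve skin 4 were called in IMO-3100 mice, against 10.6%, and 5 in IMO-8400 mice, against 7.32%, all higher.

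Among the other phospholipases A2, the cytosolic group of Pla2g4d, Pla2g4e and Pla2g4f, which are neighbours on chromosome 2, was higher in saline than in naïve skin. Pla2g4d read 8.07, 8.19, 9.06, 8.30 and 9.47 in saline mice and 2.02 in all naïve mice. It was at least 49.1-fold higher, taking a level of 3 as the bound for mice near the floor (adjusted p = 1.69e-06, limma). It read 3.48, 2.45, 4.98, 2.17 and 5.47 in IMO-8400 mice and 2.26, 2.71, 2.45, 6.61 and 4.13 in IMO-3100 mice, so no antagonist-treated mouse reached the saline range. The differences from saline were -4.90 (SE 0.72) and -4.98 (SE 0.72), and several of these mice were near the floor.

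Pla2g4e, a related cytosolic phospholipase, read 11.07, 11.03, 11.35, 10.70 and 11.50 in IMO-8400 mice, 9.78, 11.02, 10.18, 11.53 and 10.48 in IMO-3100 mice, 12.41, 12.54, 12.95, 12.43 and 13.18 in saline mice and 9.42, 9.46, 9.05, 9.28 and 8.78 in naïve mice. Both antagonist groups lay between saline and naïve skin without overlap. IMO-8400 mice differed by -1.57 from saline and 1.93 from naïve mice, IMO-3100 mice by -2.10 and 1.40, and saline by 3.50 from naïve mice (SE 0.26 each). Pla2g4f was called higher than naïve in saline (1.44), IMO-8400 (1.26) and IMO-3100 mice (1.14). The secreted enzyme Pla2g3 went the other way, lower in saline than in naïve mice by -1.80 and higher than saline in IMO-8400 (1.69) and IMO-3100 mice (1.62).

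**Figure D4:**
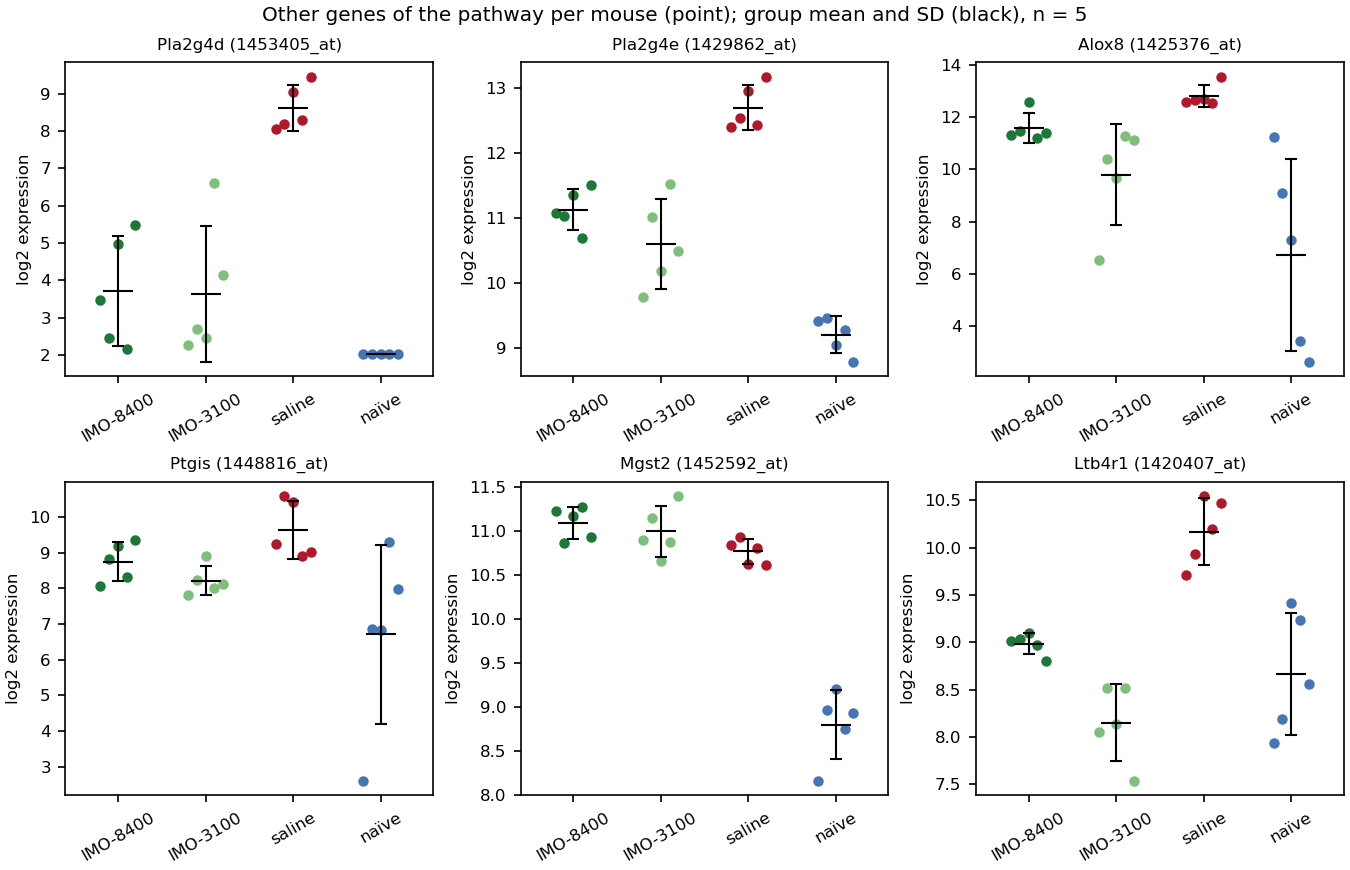
Log2 expression of 6 other genes of the pathway in every mouse, for the IMO-8400, IMO-3100, saline and naïve groups, with the group mean and SD in black (n = 5). Pla2g4d sits at 8.07 to 9.47 in saline mice and at 2.02 in naïve mice, and Mgst2 is high in all 3 groups given IL-23.

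Of the other prostanoid enzymes, Ptgis (prostacyclin synthase) and Tbxas1 (thromboxane A synthase) were called higher in saline than in naïve mice, by 2.92 (SE 0.81) and 1.37 (SE 0.46). Ptgis spanned 2.59 to 9.29 in naïve mice and differed by 1.89 without naïve replicate 1, by 0.84 with the hair follicle covariate (adjusted p = 0.554, limma), and was not called when only these groups were fitted (adjusted p = 0.0615, limma). Tbxas1 was lower in naïve replicate 1, at 7.61, than in the other naïve mice, at 9.74 to 10.70, and without that mouse its difference was 0.80, while with the covariate it was 0.39 (adjusted p = 0.664, limma). Of the leukotriene enzymes, Mgst2, a microsomal glutathione transferase that can make leukotriene C4, read 10.62 to 10.93 in saline and 8.16 to 9.20 in naïve mice. It was higher than naïve by 1.96 in saline, 2.29 in IMO-8400 and 2.19 in IMO-3100 mice (SE 0.17 each) and was not called in either antagonist group against saline. Cyp4f18, which inactivates leukotriene B4, was higher than naïve by 2.24, 1.54 and 1.52 in saline, IMO-8400 and IMO-3100 mice. The IMO-8400 call was lost, at 1.39 to 1.48, without IMO-8400 replicate 1, 2 or 3 or naïve replicate 2. With the hair follicle covariate no Cyp4f18 difference was called (1.13 in saline, adjusted p = 0.127, 0.61 in IMO-8400, adjusted p = 0.516, and 0.40 in IMO-3100 mice, adjusted p = 0.74, limma). Both antagonist calls were also lost with the mean of its probe-sets (0.77 and 0.76), with only these groups fitted and without naïve replicates 1 and 2.

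The other lipoxygenases did not share a direction. Alox8 was higher in saline (6.05, SE 1.24) and IMO-8400 mice (4.84, SE 1.24) than in naïve mice. The naïve mice spread over 11.23, 9.08, 7.31, 3.43 and 2.63 in the order of their hair follicle markers. The difference of saline from naïve mice ran from 5.66 to 10.2 over the 10 alternatives that kept single replicates in, the hair follicle covariate among them. It was called in all of them. With only the IMO-8400 and naïve groups fitted, Alox8 was not called (adjusted p = 0.0772, limma). Alox12, the platelet-type enzyme, was lower in saline than in naïve mice by -1.40 and higher in IMO-8400 than in saline mice by 1.40 (SE 0.33 each). Its mean over all probe-sets gave -0.70 and 0.71, which did not exceed an FCH of 2. With the hair follicle covariate the Alox12 difference of saline from naïve mice was -0.93 (adjusted p = 0.135, limma) and was not called. Alox12e, the epidermal enzyme of mice, was higher in IMO-8400 than in saline mice by 1.48 (SE 0.32).

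Among the receptors, Ltb4r1, the high-affinity leukotriene B4 receptor that draws neutrophils, read 9.02, 9.03, 9.10, 8.97 and 8.80 in IMO-8400 mice, 8.05, 8.52, 8.14, 8.51 and 7.53 in IMO-3100 mice, 9.71, 9.93, 10.55, 10.19 and 10.47 in saline mice and 7.94, 8.19, 9.41, 9.23 and 8.56 in naïve mice. The saline mice were above all others. The differences were 1.51 for saline against naïve, -2.02 for IMO-3100 against saline and -1.19 for IMO-8400 against saline (SE 0.26 each). Ptger1, a prostaglandin E2 receptor, was low throughout, at 2.88 to 4.24 in saline mice and under 3 in all naïve mice, where saline was at least 1.72-fold higher. It was called lower in IMO-8400 and IMO-3100 than in saline mice with the same bound. The mean of its probe-sets gave 0.88 for saline against naïve mice, which did not exceed an FCH of 2. Nor did the values of -0.88 and -0.67 for IMO-8400 and IMO-3100 against saline mice. Ptger3, another receptor of prostaglandin E2, was lower in saline than in naïve mice by -1.06 (SE 0.28). The call was lost without saline replicate 2 (-0.78) or naïve replicate 2 (-0.87). It was also lost without naïve replicates 1 and 2 together (-0.88) and with the hair follicle covariate (-0.78, adjusted p = 0.163, limma).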

How the data were processed

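Skin RNA of 20 mice was hybridised to 1 Affymetrix mouse array each. The deposited values are log2 expression per probe-set, which the authors normalised with GCRMA (version not given in the sources used here) after image checks with Harshlight and arrayQualityMetrics, per the study's methods. GCRMA subtracts a sequence-based background and quantile-normalises probe intensities between arrays, so low probe-sets collapse to a floor and their fold changes are uncertain. The number of arrays limits the precision.

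Groups came from the treatment labels. Replicates were numbered in accession order and pair no mice. The methods give 5 mice per group and the labels 5 arrays per group, read here as 1 mouse per array. The series record speaks of doses of 1 antagonist, whereas the sample labels name IMO-8400 and IMO-3100. The sample labels were followed. No array batch is given in the sources used here. Of 45101 probe-sets, 34958 had 1 gene symbol, 932 several and 9211 none. Probe-sets with a value over 2 in at least 3 arrays and an SD over 0.1 were kept (30960). With the floor at 2.02, every probe-set met the value rule and only the SD rule removed any. Means of the 4 groups were fitted to all arrays with limma 3.58.1 (lmFit, eBayes) in R 4.3.3, Benjamini-Hochberg adjustment was over all probe-sets of a comparison, and intervals are 95%. A mouse was near the floor at a value under 3, and a group when all 5 of its arrays were. Fold changes from such a group are given against 3. The fit was tested on simulated data.

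The members and all lists were chosen with earlier results of these data known. Named are all members and all pathway genes called, up to 4 per list and comparison. Alternatives were the filter, a floor at 4, 75th percentile or quantile scaling, only the 2 groups compared, a trended robust variance prior, the mean of a gene's probe-sets, the hair follicle marker mean as a covariate, naïve replicates 1 and 2 left out, and each replicate left out.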

Additional observations from a re-analysis of the deposited data

Results flagged for a closer look

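Over 53 pairs of a member probe-set and a group, Dixon's test at the 95% level marked 4 values, and chance marks about 5% of such groups. Ptgs2 probe-set 1417263_at read 6.84 in saline replicate 3 and 2.02 to 2.21 in the other saline mice. Hpgds read 9.25 in naïve replicate 1 and 10.98 to 11.45 in the other naïve mice. Alox15 read 2.93 in the same naïve mouse and 4.87 to 5.37 in the others. Alox5ap read 12.31 in IMO-8400 replicate 4 and 12.75 to 12.90 in the other IMO-8400 mice.

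The effects of the antagonists on Alox15 against saline differed from each other by 2.04 on the log2 scale, IMO-8400 minus IMO-3100 (adjusted p = 0.0364, limma). Over the alternatives that kept all replicates of both antagonist groups the adjusted p ran between 0.0308 and 0.0608, and it reached 0.102 without IMO-8400 replicate 1.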

How the results depend on the processing

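No called result turned its direction under any alternative run. Some differences that were not called did, among them those of Alox5ap from naïve skin, which turned negative with the hair follicle covariate. Over the alternatives the Ptgs2 difference of IMO-3100 from naïve skin (0.84) went down to -0.18. The Hpgds difference of saline from naïve skin (0.37) went down to -0.23. Of 421 alternative values for the 22 called differences of member probe-sets, 42 lost the call, as did 30 of 662 for the 34 called differences of other pathway genes; of 1181 values for the 62 differences not called, 20 gained it. Another scaling moved the log2 differences by a median of less than 0.1 in size over all tested probe-sets, in every comparison.

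In saline against naïve skin 4 genes were called, 2 with the hair follicle covariate (Ptges, and Alox5 lower) and 4 to 5 with a replicate left out. In IMO-3100 against saline skin 3 were called, and 1 to 3 with a replicate left out (1 without saline replicate 5). In IMO-8400 against saline skin 2 were called, 1 with no filter, 1 with the hair follicle covariate, 3 with the mean of a gene's probe-sets (Ptges added, -1.17), 3 with only these groups fitted (Ptgds added) and 1 to 2 with a replicate left out. Between the antagonists 1 was called, but 0 with no filter, with values under 4 set to 4, or with only these groups fitted, where limma gave 3, 3 and 7 genes at an unadjusted p under 0.05, and 0 to 1 with a replicate left out. In IMO-3100 against naïve skin 2 were called, 1 with only these groups fitted, 1 with the hair follicle covariate (Hpgds and Ptgds lost, Alox5 gained) and 2 to 3 with a replicate left out. In IMO-8400 against naïve skin 1 was called, and 0 with only these groups fitted (2 at an unadjusted p under 0.05). The cause of these shifts was not tested, except that fits with fewer mice have fewer degrees of freedom. The hair follicle covariate is itself far apart between naïve and other mice, so it takes up part of the group difference. Values near the floor, as for Alox15 in IMO-3100 mice, limit the size of a fold change. No paired analysis was possible because the labels give the mice no shared replicate numbers.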
